A study of Mus musculus with 12 samples.

Results

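The genes described are the hair keratins, the inner root sheath keratins and the keratin-associated proteins (gene symbols starting with Krtap), measured in allergic and untreated mouse ears. They were taken by symbol from the array's annotation: every probe set with 1 gene symbol that starts with Krtap or is one of the keratins Krt25 to Krt28, Krt31 to Krt36, Krt71 to Krt73 and Krt81 to Krt86. This gave 57 genes on 62 probe sets, of 18193 genes on 34945 probe sets with 1 symbol. They are 19 keratin genes and 38 Krtap genes. Krt85 had no probe set with 1 symbol, and 6 probe sets that carry the name of a gene of this kind together with other names were left out.

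The data are 12 one-colour Affymetrix arrays, 3 in each of 4 groups, from 6 female mice of 8 to 10 weeks. The wild-type mice were labelled C57BL/6J and Cnr1+/+/Cnr2+/+, and the knockout mice Cnr1-/-/Cnr2-/-, which lack the cannabinoid receptors CB1 and CB2 in the whole animal; their strain background is not given in the sources used here. Per the labels all mice were sensitized with 50 µl of 0.2% dinitrofluorobenzene (DNFB), a contact allergen, in acetone and olive oil on shaved abdominal skin. The right ear received 0.3% DNFB in a volume of 10 µl on day 5, and the left ear, not treated, was the control. Whole ears were frozen 48 h after a DNFB challenge that the labels call the second, so each control ear comes from a sensitized mouse with an inflamed opposite ear. The ears of a mouse carry the same number. The values are linear intensities from GCRMA, a method that corrects array background by probe sequence; an intensity of 16 was used as the lower limit of a usable signal.

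Hair is built by the follicle during its growth phase, anagen, when the matrix at the base produces concentric layers. The inner root sheath, which moulds and guides the shaft, uses its own type I keratins (Krt25 to Krt28) paired with type II keratins (Krt71 to Krt73). The shaft inside it fills with the hard hair keratins, type I (Krt31 to Krt36) and type II (Krt81 to Krt86), and the keratin-associated proteins then cross-link these filaments. Keratin-associated proteins are grouped by composition: families rich in sulfur-carrying cysteine and families rich in glycine and tyrosine. In resting follicles these genes are largely silent, and the genes themselves lie in clusters.

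In the RefSeq annotation (GRCm38.p6) the type I keratins of both kinds lie on chromosome 11 and the type II keratins on chromosome 15. The 14 glycine-tyrosine Krtap genes lie on chromosome 16. The 22 sulfur-rich Krtap genes are spread over chromosomes 11 (9 genes), 16 (6), 7 (5) and 10 (2). The 250 bases upstream of the start site were available from RefSeq for 50 of the 57 genes. They were searched on both strands for the TATA box letters TATAAA, for CTTTGAA, a core recognised by LEF1 and TCF factors, and for GACGC, a core of the FOXN1 site. These motifs do not overlap one another in the sequences shown. TATAAA was present in 40 of the 50 (80.0%), against 14.3% of the 27018 genes with such a sequence. CTTTGAA was present in 10 of 50 (against 5.19%), among them 4 of the 5 type I hair keratins with a sequence. GACGC was present in 4 of 50 (8.0%, against 24.9%). A match of letters is a description of these windows and not a binding site. The upstream sequences of 5 genes that the values below turn on (2 sheath keratins, 1 type I hair keratin and 2 glycine-tyrosine Krtap genes) are given 5′ to 3′ with these motifs in capitals on whichever strand they were found.
Krt25, chr11:99322952-99323201, minus strand: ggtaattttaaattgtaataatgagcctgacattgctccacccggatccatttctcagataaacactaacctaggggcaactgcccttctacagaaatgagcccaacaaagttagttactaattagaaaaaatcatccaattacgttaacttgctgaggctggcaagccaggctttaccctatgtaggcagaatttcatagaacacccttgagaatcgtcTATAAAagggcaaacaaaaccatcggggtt
Krt71, chr15:101743098-101743347, minus strand: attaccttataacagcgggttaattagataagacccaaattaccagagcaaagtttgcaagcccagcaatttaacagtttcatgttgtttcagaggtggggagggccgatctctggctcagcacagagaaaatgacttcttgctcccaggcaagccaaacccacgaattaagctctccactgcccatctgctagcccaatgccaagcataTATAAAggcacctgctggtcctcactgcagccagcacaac
Krt34, chr11:100041555-100041804, minus strand: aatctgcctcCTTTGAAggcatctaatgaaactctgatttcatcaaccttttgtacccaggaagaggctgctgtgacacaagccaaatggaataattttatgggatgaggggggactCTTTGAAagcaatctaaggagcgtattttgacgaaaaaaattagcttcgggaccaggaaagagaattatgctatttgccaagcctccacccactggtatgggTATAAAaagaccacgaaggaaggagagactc
Krtap8-1, chr16:89487953-89488202, minus strand: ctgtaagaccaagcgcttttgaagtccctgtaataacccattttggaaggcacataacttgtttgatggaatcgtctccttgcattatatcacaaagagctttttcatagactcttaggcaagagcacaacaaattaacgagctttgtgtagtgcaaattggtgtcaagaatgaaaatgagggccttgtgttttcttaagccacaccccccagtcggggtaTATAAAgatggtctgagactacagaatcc
Krtap16-3, chr16:88962874-88963123, minus strand: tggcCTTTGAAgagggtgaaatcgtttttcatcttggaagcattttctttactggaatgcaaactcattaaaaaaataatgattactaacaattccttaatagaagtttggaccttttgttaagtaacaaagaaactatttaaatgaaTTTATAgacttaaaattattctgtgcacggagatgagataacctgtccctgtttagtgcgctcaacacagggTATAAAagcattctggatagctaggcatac
In all 5 a TATAAA on the gene's own strand began 29 to 40 bases before the start. It stood 30 bases before it in Krt25, 40 in Krt71, 31 in Krt34, 29 in Krtap8-1 and 30 in Krtap16-3. Krt34 held CTTTGAA 2 times, beginning 240 and 133 bases before the start. Krtap16-3 held it 1 time, 246 bases before the start, and a TATAAA on the opposite strand.

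Between 57.7% and 61.5% of all probe sets on an array reached an intensity of 16, with array medians of 24.6 to 29.97. The targeted genes gave no check of genotype. Over its 2 probe sets Cnr1 lay between 4.88 and 19.8 in all 12 ears, and Cnr2 between 7.84 and 39.4, with overlapping ranges in the 2 genotypes. Whether these probes lie in the deleted parts is not given, so genotype is taken from the labels. Hybridization times in the instrument records fall into 3 groups of arrays, separated by gaps of over 30 min. They are called washing runs here, a name inferred from the times. The 3 untreated wild-type ears shared run 1 with treated wild-type ear 1. The other treated wild-type ears were in run 2 beside untreated knockout ears 1 and 2, and the remaining 4 knockout arrays made up run 3. The log2 ratio of 3' to 5' Actb control probe sets, a sign of RNA quality, lay between 0.61 and 0.73 in wild-type control, 0.47 and 0.62 in wild-type DNFB, 0.46 and 0.50 in knockout control, and 0.41 and 0.42 in knockout DNFB ears. The same ratio for Gapdh overlapped between the groups. In the same order it ran from -0.47 to -0.31, -0.36 to -0.32, -0.43 to -0.32 and -0.39 to -0.29.

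The hair genes were mostly below the usable signal in the control ears, clearly above it in wild-type DNFB ear 1 and knockout DNFB ears 1 and 2, and less far above it in the other DNFB ears. The median intensity over the 57 genes was 7.07, 5.78 and 13.04 in wild-type control ears 1, 2 and 3, and 5.80, 6.504 and 5.60 in the knockout control ears. It was 108, 32.7 and 20.8 in wild-type DNFB ears 1, 2 and 3, and 79.1, 147 and 23.2 in the knockout DNFB ears. Every DNFB ear was above every control ear by this median, while the DNFB ears of a genotype differed from one another several times over. The number of genes at an intensity of 16 or more was 9, 6 and 19 in wild-type control ears and 6, 8 and 8 in knockout control ears. It was 53, 49 and 39 in wild-type DNFB ears and 50, 54 and 40 in knockout DNFB ears. No gene of the 57 reached 64 in a control ear. In the DNFB ears 41, 9 and 4 genes did so in wild type, and 34, 45 and 5 in the knockout. In bulk tissue, fewer cells of a type and less RNA per cell cannot be told apart.

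**Figure D1:**
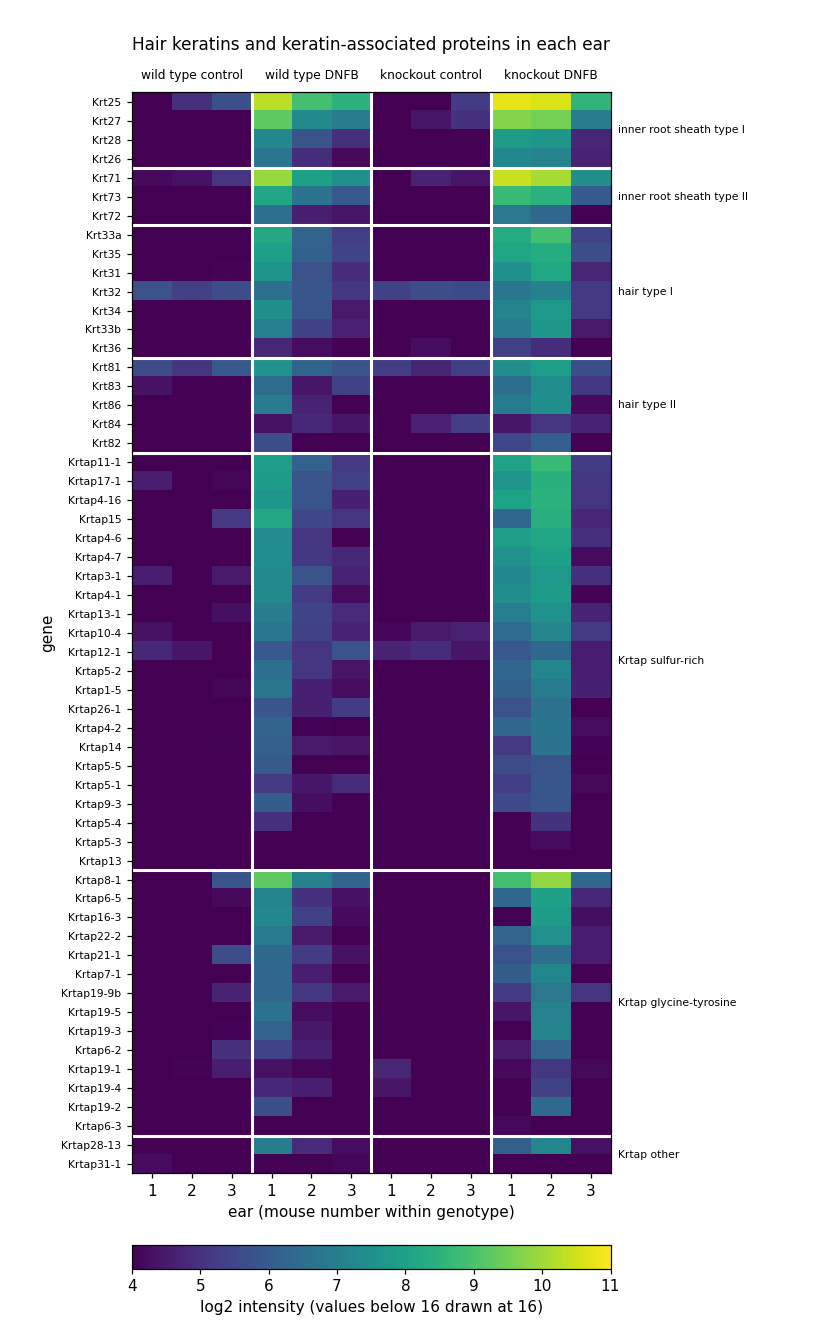
Each row is 1 of the 57 genes and each column 1 of the 12 ears; colour is the log2 intensity, with values below 16 drawn at 16, and is read along a row because intensities of different probe sets are not comparable. Nearly all rows are dark in the 6 control ears and brighter in the DNFB ears, most of all in wild-type DNFB ear 1 and knockout DNFB ears 1 and 2.

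The DNFB response was first measured in wild-type mice. Of the 57 genes, 51 reached 16 in at least 3 of the 12 arrays and were tested. Many of them reached 16 only in DNFB ears, so counts and medians over the 51 depend in part on this filter. Values over all 57 are given beside them. In wild type 24 of these 51 rose and 0 fell (limma, adjusted p below 0.05); over all 13383 genes tested, 19.1% rose and 24.1% fell (43.1% in either direction). The median log2 change of the 51 was 2.56, beside -0.08 for all genes tested; with values below 16 set to 16 it was 1.19 over all 57. The lowest log2 change among the 51 was 0.03 (Krtap19-1), and 37 changes had an unadjusted p below 0.05. All 3 DNFB ears lay above all 3 control ears in 39 of the 57 (background 20.6%), and the treated ear was above the control ear of the same mouse in 3 of 3 mice for 40 (background 25.9%). The count of 24 is not a firm one: it was 10 without wild-type DNFB ear 1, 11 without DNFB ear 2, 12 without control ear 1 or without control ear 2, 11 with no filter and 13 with values below 16 set to 16. With the mouse as a block it was 16, of which 12 were among the 24.

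In the knockout, 40 of the 51 rose and 0 fell, where 21.2% of all genes tested rose and 24.6% fell (45.8% in either direction). The median log2 change was 3.90, beside -0.06 for all genes tested, and 1.88 over all 57 genes with values below 16 set to 16. Krt36 had the lowest change, -0.06, and 43 changes had an unadjusted p below 0.05. With no filter 31 genes rose, and with values below 16 set to 16 the count was 35. All 3 DNFB ears lay above all 3 control ears in 42 of 57 (background 21.0%), and the treated ear was higher in 3 of 3 mice for 46 (background 26.9%). The count was 24 without knockout DNFB ear 2, 32 with the mouse as a block and 22 with washing run as a block, a fit that rests on control ear 3 for the knockout. Within washing run 3, the 3 knockout DNFB ears were above knockout control ear 3 in 55, 55 and 50 of the 57 genes. Within run 1, wild-type DNFB ear 1 was above all 3 wild-type control ears in 54 of 57. The shares of all genes that did the same within a run were not counted, so these counts stand without a background. Both genotypes called 22 genes in common. On the probe set read for each gene, Krtap12-1 and Krtap16-3 passed in wild type alone and 18 genes in the knockout alone. Those lists do not show a difference between genotypes, which was tested directly and is given further on.

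The type I keratins of the inner root sheath rose in both genotypes, 4 of 4 in each. Krt25, present through the layers of the inner root sheath, was 11.2, 30.6 and 51.9 in wild-type control ears and 1266, 483 and 357 in DNFB ears 1, 2 and 3. Its knockout values were 3.79, 13.7 and 37.5 in control ears and 1715, 1542 and 379 in DNFB ears. No DNFB ear overlapped a control ear, and DNFB ear 3 was the lowest treated ear in both genotypes. The log2 change was 4.53 ± 0.92 (SE, adjusted p = 0.00353) in wild type and 6.33 ± 0.92 (adjusted p = 0.000449) in the knockout. Krt27, another inner root sheath type I keratin, went from 10.8, 12.8 and 14.2 to 610.2, 163 and 124 in wild type, a rise of at least 14.4-fold (adjusted p = 0.00164). Its knockout values were 15.98, 21.1 and 32.2 in control ears and 835, 744 and 123 in DNFB ears, a log2 change of 4.26 ± 0.75 (adjusted p = 0.00137). Krt28 and Krt26, the latter a keratin of the inner root sheath cuticle, were below 16 in every control ear. Krt28 reached 153, 55.99 and 31.2 in wild-type DNFB ears and 227, 209 and 26.97 in knockout DNFB ears, rises of at least 4.03-fold and 6.78-fold. Krt26 reached 108, 29.96 and 18.2 in wild-type and 154, 139.5 and 25.3 in knockout DNFB ears, rises of at least 2.43-fold and 5.09-fold. The same treated ears were high for all 4 genes.

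Their type II partners behaved alike in the knockout, where 3 of 3 rose, and 2 of 3 rose in wild type. Krt71, whose product pairs with these type I keratins throughout the sheath, was 18.1, 20.1 and 33.7 in wild-type control ears and 975, 253 and 184 in DNFB ears, a log2 change of 3.95 ± 0.81 (adjusted p = 0.00365). Knockout values went from 10.6, 25.6 and 20.5 to 1366, 1091 and 176, a change of 5.17 ± 0.81 (adjusted p = 0.000687). Treated and control ears were again fully apart. Krt73, a cuticle keratin of the sheath, stayed below 16 in all control ears. It reached 283, 102 and 61.3 in wild-type DNFB ears (at least 7.54-fold) and 429, 352 and 65.3 in knockout DNFB ears (at least 13.4-fold). Krt72, also of the sheath cuticle, was 94.2, 23.97 and 21.01 in wild-type DNFB ears against at most 15.98 in control ears, and its change of 2.47 ± 1.00 did not pass (adjusted p = 0.0765). In the knockout it was 112, 82.5 and 11.6, the last below 16, with a change of 3.02 ± 1.00 that passed (adjusted p = 0.036).

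Of the 7 type I hair keratins of the shaft, 4 rose in wild type and 5 in the knockout. Krt35, which appears early in the hair matrix and shaft cuticle, was 11.5, 2.01 and 10.6 in wild-type control ears and 246, 71.3 and 43.4 in DNFB ears, a rise of at least 5.71-fold (adjusted p = 0.00717). Knockout ears went from 4.20, 4.04 and 7.11 to 277, 324 and 50.5, a rise of at least 10.3-fold (adjusted p = 0.00148). Every treated ear was above every control ear. Krt33a, Krt33b and Krt34, keratins of the shaft cortex, were below 16 in all 6 control ears and also rose in both genotypes. Krt34 reached 180.4, 56.5 and 22.5 in wild-type DNFB ears (log2 5.09 ± 0.82, adjusted p = 0.00092, at least 3.82-fold) and 139, 213 and 35.8 in knockout DNFB ears (6.52 ± 0.82, adjusted p = 0.000174, at least 6.38-fold). Krt33a reached 299, 75.2 and 38.5 in wild type and 317, 479 and 42.4 in the knockout. Krt31, a cortex keratin, passed in the knockout (3.93 ± 0.94, adjusted p = 0.00775), where DNFB ears read 182, 293 and 26.7, and missed in wild type (2.41 ± 0.94, adjusted p = 0.0661), where they read 197, 53.8 and 29.4. Krt32, a keratin of the shaft cuticle, did not follow the other type I genes. It was 53.3, 40.1 and 50.8 in wild-type control and 93.7, 58.3 and 34.4 in wild-type DNFB ears, and 40.6, 50.4 and 47.4 against 107, 133 and 35.7 in the knockout. It was measurable in every ear, treated and control ears overlapped, and neither change passed (adjusted p = 0.687 and 0.208). Krt36, known also from nail and tongue, stayed between 1.33 and 40.3 in all ears and did not pass either.

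The type II hair keratins gave fewer calls: 0 of 5 in wild type, with 2 at an unadjusted p below 0.05, and 3 of 5 in the knockout. Krt81, a cortex keratin, was 49.6, 34.1 and 59.2 in wild-type control ears and 186, 76.2 and 57.8 in DNFB ears, so that the groups overlapped (log2 1.01 ± 0.57, adjusted p = 0.187). In the knockout it was 38.6, 26.4 and 39.7 against 174, 236 and 51.7, without overlap, and rose by 1.91 ± 0.57 (adjusted p = 0.0225). Krt86, its close relative in the cortex, read 118, 25.4 and 12.3 in wild-type and 116, 179 and 18.2 in knockout DNFB ears, with all control ears below 16. Krt83 read 88.8, 21.6 and 41.0 in wild-type and 92.98, 171 and 34.9 in knockout DNFB ears. Both passed in the knockout alone, with rises of at least 4.51-fold and 5.13-fold. Krt84, a keratin best known from tongue and nail, was 19.95, 27.8 and 21.4 in wild-type DNFB ears and 21.4, 33.5 and 25.3 in knockout DNFB ears, against 12.2 to 38.4 in control ears, and passed in neither. Krt82, a cuticle keratin, was below 16 in all control ears and in 3 of the 6 DNFB ears, and did not pass.

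**Figure D2:**
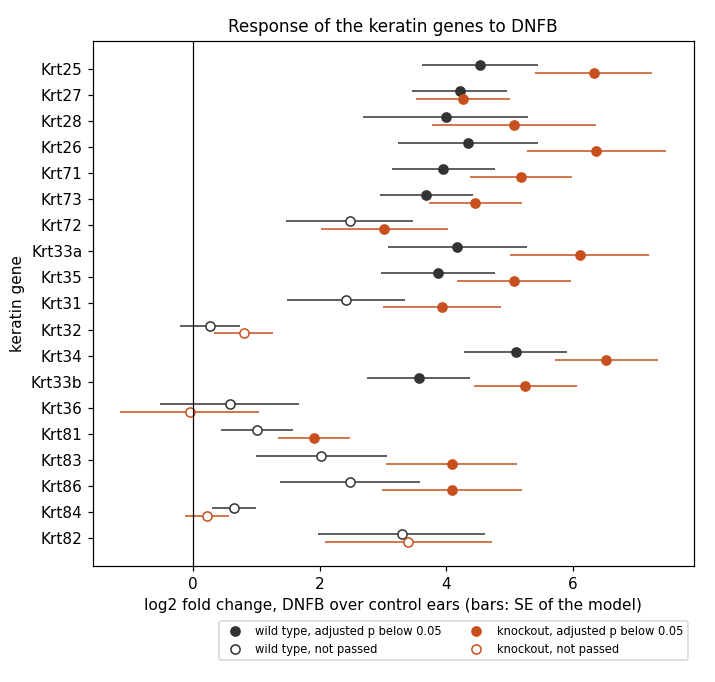
Points are the log2 fold changes of the 19 keratin genes between DNFB and control ears in wild type (dark) and knockout (orange), with bars for the SE of the model and filled points for adjusted p below 0.05; n is 3 ears in each group. Krt34 lies at 5.09 and 6.52 while Krt32 lies at 0.26 and 0.80; changes of genes whose control ears are below 16 depend on background correction.

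Among the keratin-associated proteins rich in sulfur, 19 of 22 genes were tested, and 9 rose in wild type and 17 in the knockout. Krtap11-1, a single-gene family of the shaft, was 1.29, 2.41 and 5.34 in wild-type control ears and 243, 73.5 and 35.6 in DNFB ears, at least 5.37-fold higher (adjusted p = 0.00215). Knockout control ears read 0.93, 1.73 and 0.85, and knockout DNFB ears 261, 426 and 37.7, at least 10.1-fold higher (adjusted p = 0.000239). It was below 16 in all 6 control ears and above it in all 6 treated ears. The Krtap4 family on chromosome 11 was represented by Krtap4-1, Krtap4-2, Krtap4-6, Krtap4-7 and Krtap4-16. All 5 rose in the knockout; Krtap4-1 and Krtap4-16 rose in wild type. Krtap4-16 read 209, 56.6 and 24.4 in wild-type DNFB ears and 267, 354 and 33.9 in knockout DNFB ears, at least 4.13-fold and 9.21-fold above control ears. Krtap17-1, another single-gene family, was 23.6, 13.4 and 17.04 in wild-type control ears and 229.8, 55.3 and 40.1 in DNFB ears, and missed the threshold (log2 2.19 ± 0.82, adjusted p = 0.0596). It rose at least 8.46-fold in the knockout (adjusted p = 0.00836), with DNFB ears at 200.3, 349 and 35.5. Krtap10-4 on chromosome 10 passed in both genotypes at a small size: 108, 41.6 and 25.9 in wild-type DNFB ears against 15.1 to 20.02 in control ears (1.55 ± 0.55, adjusted p = 0.0483). Krtap12-1, its neighbour in class, passed in wild type alone (1.64 ± 0.58, adjusted p = 0.0483), where control ears read 27.9, 21.6 and 6.05 and DNFB ears 59.2, 33.9 and 54.7. Its other tested probe set had the reverse pattern. There treated and control ears overlapped in wild type (27.4, 18.2 and 11.95 against 18.4, 0.84 and 5.21). In the knockout they were apart (37.0, 72.5 and 17.4 against 13.4, 4.45 and 2.20). Of the 5 Krtap5 genes on chromosome 7, Krtap5-2 rose in both genotypes (adjusted p = 0.0104 and 0.00181), Krtap5-1 in the knockout, and Krtap5-5 in neither. On the other tested probe set of Krtap5-1, treated ears were above control ears in wild type but overlapped them in the knockout. Knockout DNFB ear 3 read 1.28 there. Krtap5-3 and Krtap5-4 were too low to test, as was Krtap13, which was below 16 in all 12 ears. Krtap families hold near-identical genes that can share probes, so the member behind a signal is uncertain.

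The glycine-tyrosine class was the most uneven. Of 14 genes 12 were tested, and 5 rose in wild type and 7 in the knockout. Krtap8-1, a small cortex protein, was 14.7, 11.4 and 56.3 in wild-type control ears and 616, 132 and 75.8 in DNFB ears (3.11 ± 1.01, adjusted p = 0.0342). Its knockout values were 5.84, 8.39 and 14.6 in control ears and 469, 939 and 80.5 in DNFB ears, at least 20.5-fold higher (adjusted p = 0.00258). Groups did not overlap in either genotype. Krtap16-3 read 155, 41.4 and 18.2 in wild-type DNFB ears, at least 3.06-fold above control ears (adjusted p = 0.0371), and 16.5, 236 and 19.1 in knockout DNFB ears, where its change did not pass (3.48 ± 1.58, adjusted p = 0.108). In the knockout it was therefore high in 1 treated ear of 3. Krtap6-5, Krtap19-5 and Krtap19-9b passed in both genotypes. Krtap7-1, Krtap21-1 and Krtap22-2 passed in the knockout. Krtap19-3, Krtap6-2, Krtap19-1 and Krtap19-4 passed in neither. On its tested probe set Krtap19-1 stayed between 10.4 and 35.2 in all 12 ears. Its other probe set, too low to test, read 25.8, 11.1 and 1.08 in wild-type DNFB ears and 6.22, 48.4 and 5.63 in knockout DNFB ears. Control ears read at most 8.42 on that set, and in the knockout every treated ear was above them. Krtap19-2, not tested, was 51.7, 10.0 and 1.62 in wild-type and 0.83, 84.3 and 0.75 in knockout DNFB ears. Of the 2 genes outside both classes, Krtap28-13 on chromosome 1 rose in the knockout (at least 3.68-fold, adjusted p = 0.0245). Krtap31-1 stayed between 5.84 and 18.5 everywhere and was not tested; it was the gene whose treated ear was below the control ear in all 3 knockout mice.

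The treated ears of 1 genotype differed far more in these genes than in others. The median SD of log2 values within wild-type DNFB ears was 1.30 over the 51 genes tested, against 0.15 over all genes tested, and within knockout DNFB ears 1.51 against 0.16. Part of that spread in control ears (0.89 and 0.80, against 0.13 and 0.16) lies in values below 16. The order of the ears was shared by most genes. Wild-type DNFB ear 1 was the highest treated ear in 50 of the 51, and Krt84 was the exception. Knockout DNFB ear 3 was the lowest of its group in 48 of the 51, and ear 2 the highest in 43. The full order was ear 1, 2, 3 in 46 of 51 in wild type, and in the knockout ear 2, 1, 3 in 40, ear 1, 2, 3 in 8 and ear 2, 3, 1 in 3. Genes of 1 ear share tissue and RNA, so these counts are not independent.

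In wild type, DNFB ear 2 was lower than DNFB ear 1 by a like factor in every class. Counting values below 16 as 16, ear 2 stood at a median of 32.1% of ear 1 over the 4 type I sheath keratins, 31.3% over the 7 type I hair keratins, 29.3% over 20 sulfur-rich genes and 29.95% over 13 glycine-tyrosine genes. In the knockout, DNFB ear 3 stood at 17.3%, 15.6%, 16.1% and 12.6% of DNFB ear 2 in the same 4 classes. Knockout DNFB ear 1 against ear 2 had another shape. Ear 1 was at 108% to 112% of ear 2 for the 4 type I sheath keratins and 122% to 136% for the 3 type II ones. It was at a median of 66.2% for the 7 type I hair keratins, 64.8% for the 5 type II ones and 67.1% for 21 sulfur-rich genes. For the 14 glycine-tyrosine genes the median was 37.2%, and 13 of the 14 were lower in ear 1.

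The extremes of that ratio lay in 1 gene class. Krtap16-3 was at 6.99% in ear 1, where it read 16.5, just above the lower limit, and Krtap19-5 was at 15.7%. The other probe set of Krtap16-3, too low to test, read 13.1 in ear 1 and 82.9 in ear 2. Krtap19-3 and Krtap19-2 were below 16 in ear 1 and at 142 and 84.3 in ear 2, so that ear 1 held at most 11.3% and 18.98%. By contrast Krt35 was at 277 and 324, and Krt71 at 1366 and 1091. Among the sulfur-rich genes the 9 on chromosome 11 had a median of 74.6%, and the 5 measured on chromosome 16, where all glycine-tyrosine genes lie, 53.1%, with Krtap15 the lowest at 24.4%. Class and chromosome largely coincide, and they were not separated by a test. Ear 1 was below 50% of ear 2 in 11 of the 14 glycine-tyrosine genes and in 0 of the 19 keratins; over all 13383 genes tested the share was 0.508%. With 1 ear on each side the contrast between classes has no replicate check, and it was noticed in these values, so no test was made. Each ear was also read against wild-type DNFB ear 1, over type I sheath, type I hair, sulfur-rich and glycine-tyrosine genes in turn. The median log2 ratios, with values below 16 set to 16, were 0.48, 0.09, -0.09 and -0.77 for knockout ear 1. For knockout ear 2 they were 0.33, 0.50, 0.51 and 0.61. These pairs cross genotypes and were not tested.

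**Figure D3:**
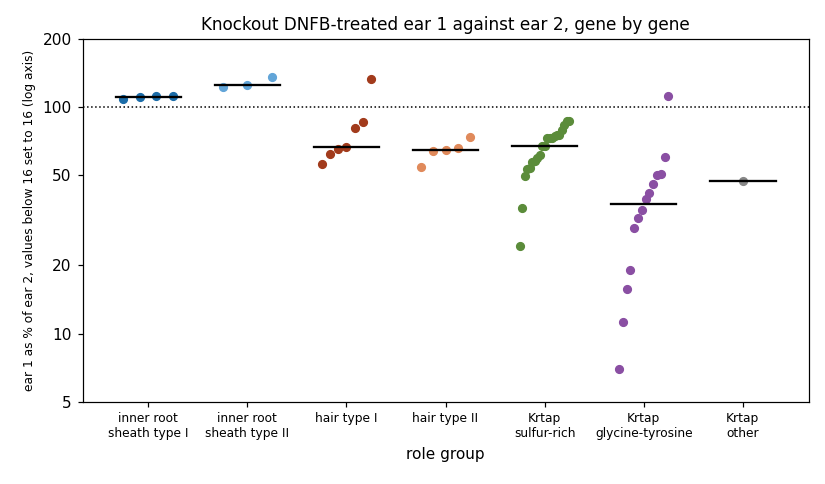
Each point is a gene with an intensity of 16 or more in knockout DNFB ear 1 or 2, placed by its level in ear 1 as a percentage of that in ear 2 (log axis, values below 16 set to 16), and horizontal bars are class medians. Sheath keratins lie above 100%, hair keratins at medians of 66.2% and 64.8%, and glycine-tyrosine genes at a median of 37.2%.

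Among the control ears, wild-type ear 3 held the most genes at 16 or more: 19, against 9 and 6 in wild-type control ears 1 and 2. Over all probe sets 60.9% reached 16 in ear 3, against 61.5% and 60.3% in ears 1 and 2. Ear 3 was the highest of the 3 in 34 of 57 genes, many of them below 16. The share of all genes with ear 3 highest was not counted. In the glycine-tyrosine class 7 of 14 genes reached 16 in ear 3, against 0 and 1 in the other wild-type control ears. Krtap8-1 read 56.3 there, Krtap21-1 48.7 against 9.20 and 3.87, and Krtap6-2 30.7 against 0.51 and 5.36. Krtap15 of the sulfur-rich class read 35.9 against 0.36 and 0.92. Without that ear 22 genes rose in wild type, of which 17 were among the 24.

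**Figure D4:**
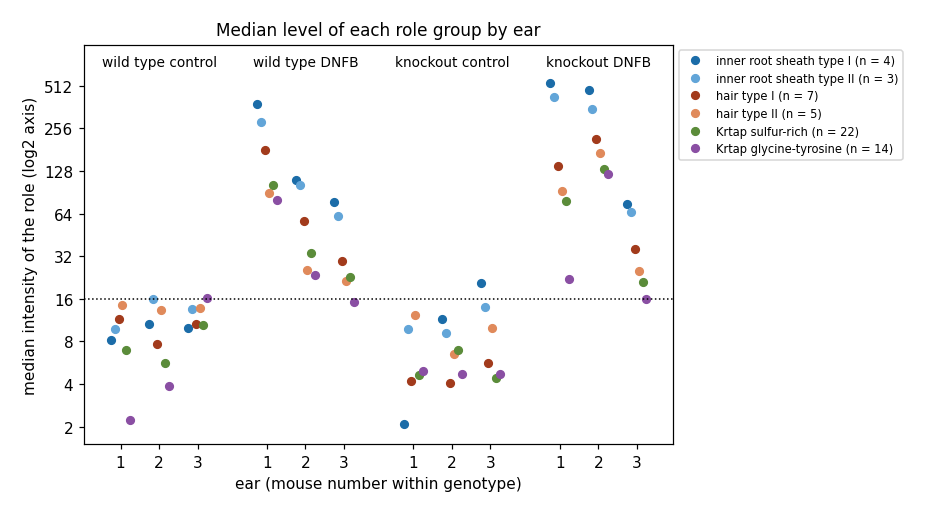
Points are the median intensity (log2 axis) of each of 6 classes in each of the 12 ears, with the number of genes in the legend and a dotted line at 16; the 2 remaining Krtap genes are not drawn. The glycine-tyrosine class reads 21.99 in knockout DNFB ear 1 and 123 in ear 2, while the type I sheath class reads 531 and 477; heights of different classes are not comparable, since they come from different probe sets.

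The genotype comparisons ask whether loss of both receptors changes these genes in either kind of ear. In control ears 0 of the 51 genes differed (limma; 1 at an unadjusted p below 0.05), where 0.0822% of all genes tested were higher and 0.0672% lower in the knockout. Krtap3-1 had the smallest p: it was 22.98, 15.3 and 22.3 in wild-type and 4.11, 12.3 and 3.13 in knockout control ears (log2 -1.88 ± 0.82, adjusted p = 0.415). The sign of that difference turned to 0.58 with washing run as a block. Untreated ears of the 2 genotypes shared no run, so that fit compares them only through the wild-type DNFB ears. In DNFB ears 0 of 51 differed and 0 had an unadjusted p below 0.05, against 0.0299% higher and 0.0374% lower over all genes tested. The median difference over the 51 genes was 0.70 on the log2 scale, and the SE of single genes ran from 0.35 (Krt84) to 1.75 (Krtap19-3). For Krt25 it was 0.73 ± 0.92 (adjusted p = 0.842), for Krt71 0.84 ± 0.81 (adjusted p = 0.781) and for Krtap8-1 0.84 ± 1.01 (adjusted p = 0.833). With ears of 1 genotype as far apart as 1715 and 379 for Krt25, differences of a few-fold between genotypes could be missed in genes with a large SE. What size could be detected was not computed.

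The difference between the knockout and the wild-type response passed for 0 of 51 genes, with 1 at an unadjusted p below 0.05; over all genes tested 0.0% were higher and 0.00747% lower. Its median was 1.20. Krtap3-1 again had the smallest p (2.60 ± 1.16, adjusted p = 0.801). For Krt25 the difference was 1.79 ± 1.30 (adjusted p = 0.885), for Krt34 1.43 ± 1.15 (adjusted p = 0.897) and for Krtap11-1 2.10 ± 1.34 (adjusted p = 0.868). The 40 calls in the knockout and the 24 in wild type therefore do not amount to a measured difference between genotypes.

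Genes of the growing follicle outside the keratin and Krtap families were read beside them from 13 lists. Over all genes tested, 19.1% rose and 24.1% fell in wild type, and 21.2% rose and 24.6% fell in the knockout. Of 8 tested genes of the shaft and inner root sheath, 3 rose in wild type and 6 in the knockout. Tchh, trichohyalin, which hardens the inner root sheath, was 27.9, 37.3 and 31.0 in wild-type control ears and 991, 276 and 219.6 in DNFB ears (3.62 ± 0.68, adjusted p = 0.00232). In the knockout it went from 15.3, 28.7 and 26.7 to 912, 965 and 184 (4.58 ± 0.68, adjusted p = 0.000514). Padi3, an enzyme that modifies trichohyalin, read 80.7, 32.4 and 14.5 in wild-type and 103, 111 and 21.2 in knockout DNFB ears and rose in the knockout (adjusted p = 0.00385). S100a3, Gprc5d, Prr9, Vsig8 and Krt75 were likewise highest in wild-type DNFB ear 1 and lowest in DNFB ear 3 of both genotypes. Tgm3, a transglutaminase, was not: it read 127, 215 and 190.1 in wild-type and 148, 176 and 103 in knockout DNFB ears.

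Regulators and markers of other follicle cells were counted in the same way. The shares over all genes tested were 19.1% rising and 24.1% falling in wild type, and 21.2% and 24.6% in the knockout. No set test was made of these short lists. Of 15 transcription factors of the hair matrix, 1 rose and 2 fell in each genotype. Foxn1, a driver of hair keratin genes, was 46.8 to 56.9 in wild-type DNFB ears against 47.5 to 63.8 in control ears, without a change that passed. Hoxc13, another such factor, did not pass either, but read 31.4, 17.3 and 12.3 in wild-type DNFB ears 1, 2 and 3 and 26.8, 30.6 and 8.73 in knockout DNFB ears, the ear order of most hair genes. Its control ears read 12.1 to 25.2 in both genotypes. Of 11 tested follicle signals and receptors, 4 fell in wild type, and 1 rose and 5 fell in the knockout. The gene that rose was Shh, made in the growing matrix, at 41.6, 55.3 and 23.4 in knockout DNFB ears against 15.3, 11.1 and 14.9 in control ears (1.47 ± 0.32, adjusted p = 0.0045). Of 8 bulge and outer root sheath genes 7 fell in wild type and 5 in the knockout, and of 6 sebaceous gland markers 5 and 6 fell. Of 9 melanocyte markers 1 fell in wild type, and no other change of that list passed. Their summed intensity was 657, 443 and 441 in wild-type DNFB ears and 784, 822 and 503 in knockout DNFB ears, the order of the hair gene sums in both genotypes, with the highest ear 1.87 times the lowest. Its part in the hair gene values was not tested. Of 7 dermal papilla genes 1 rose and 3 fell in wild type, and 2 rose and 4 fell in the knockout.

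Marker lists of inflammation and of other tissues were summed in the same ears, and their counts of calls stand beside the same shares over all genes tested. The summed intensity of the 57 genes was 9412, 2815 and 1919.5 in wild-type DNFB ears 1, 2 and 3, and 9757, 12853 and 1913 in the knockout. All 4 wound keratins rose in both genotypes, and their sums were 20964, 24304 and 22467, and 19560.1, 23368 and 21461, in the same ears. All 7 neutrophil markers rose, with sums of 9437, 12842 and 12923, and 7711, 10447 and 12489. All 9 proliferation markers rose, with sums of 3496, 4042 and 3216, and 4266, 4035 and 4139. Over the 6 treated ears the highest sum was 1.24, 1.68 and 1.33 times the lowest for these 3 lists, and 6.72 times the lowest for the hair genes. Of 8 skeletal muscle markers 7 fell in each genotype, with sums of 5055, 7092 and 8173, and 5339.8, 5607 and 6951. Of 8 cartilage markers 5 fell in wild type and 6 in the knockout, and of 7 markers of the epidermis between follicles 1 rose and 3 fell in wild type and 3 rose and 3 fell in the knockout. In each genotype the treated ear with the lowest hair gene sum had the highest muscle and the highest neutrophil sum, and in wild type both sums ran opposite to that of the hair genes over all 3 ears. The part of tissue makeup in the hair gene values was not tested.

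**Figure D5:**
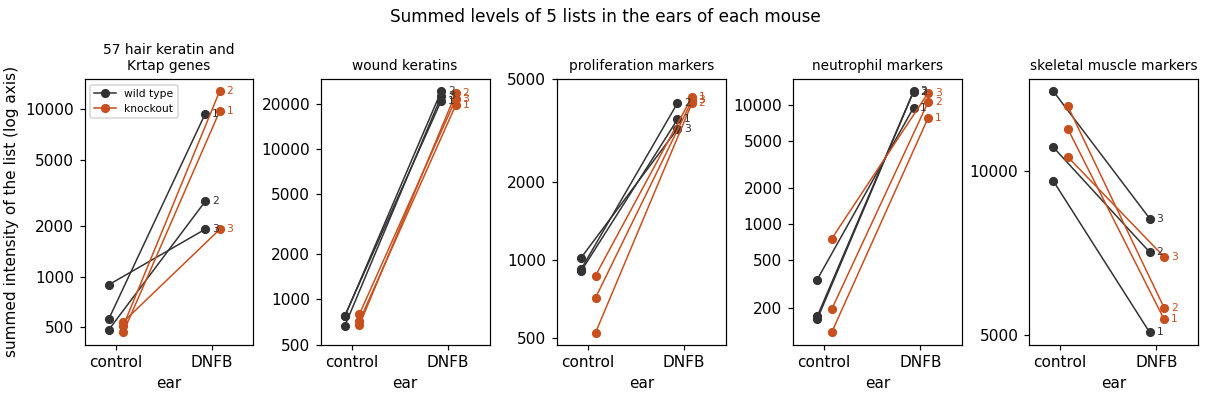
Each panel gives the summed intensity (log axis) of 1 list in the control and DNFB ear of each mouse, with a line per mouse, its number at the right and orange for the knockout. Hair gene sums in DNFB ears run from 1913 to 12853, while the wound keratins run from 19560.1 to 24304.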

How the data were processed

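RNA of 12 whole ears was measured on Affymetrix Mouse430_2 arrays. The deposited table holds 1 linear intensity per probe set and array, which the authors made with GCRMA, per the submitters' processing notes; its version and settings are not given in the sources used here. The deposited instrument records (unit: other) gave hybridization times, from which washing runs were inferred, taken as separate after a gap of over 30 min. Symbols came from GEO's platform annotation, and the Entrez identifiers of all 62 probe sets matched RefSeq (GRCm38.p6). Upstream sequences are RefSeq's. No protein sequences were used, so Krtap classes were assigned by family number from general knowledge: families 6, 7, 8, 16, 19, 21 and 22 as glycine-tyrosine, Krtap28-13 and Krtap31-1 as other, the rest as sulfur-rich.

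Probe sets with an intensity of at least 16 in at least 3 of 12 arrays (29460) were tested on log2 values with no pseudocount. Each gene was read from its tested probe set of highest mean. limma 3.58.1 (R 4.3.3, lmFit and eBayes, 1 coefficient per group) gave 5 comparisons, adjusted by Benjamini-Hochberg over the tested probe sets, with a threshold of 0.05. Errors are SE of the model, n = 3 ears per group. Where all 3 ears of a group are below 16, a fold is given as "at least", the bright group's mean log2 value against 16. The fit was tested on simulated data. The number of arrays limits the precision.

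The labels pair the ears of a mouse. The correlation between the 2 arrays of a mouse, after subtracting group means, was -0.004 to 0.08 over the tested probe sets. Over the 53 tested probe sets of the genes described it was -0.50 to 0.04. The mouse was an alternative block. Named genes are up to 25 per comparison with the largest change past the threshold (the 5 smallest p where under 5 passed), plus every keratin and the top gene of each class. Krtap genes outside this rule (Krtap17-1, Krtap19-1, Krtap19-2, Krtap6-2, Krtap19-3, Krtap19-4, Krtap31-1, Krtap5-1, Krtap5-3, Krtap5-4, Krtap5-5, Krtap13, Krtap21-1) were named after their values were seen. The alternatives were no filter, a filter at 64, eBayes with trend and robust, median-centred arrays, quantile normalization, values below 16 set to 16, log2(value + 16), mouse or washing run as a block, probe sets in place of genes, and each array left out. The genes and lists were chosen with earlier results of these data known.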

Additional observations from a re-analysis of the deposited data

Results flagged for a closer look

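Probe sets that carry the name of a Krtap gene beside other gene names were left out of all counts, and for 3 of them every treated ear was above every control ear in at least 1 genotype. The probe set of Gm11554, Gm11569 and Krtap4-13 had a mean of 47.2 ± 54.9 (SD, n = 3) in wild-type DNFB ears and 90.2 ± 79.8 in knockout DNFB ears, against 2.08 and 2.53 in control ears. That of Gm11559, Gm11567, Gm11568 and Krtap9-1 had means of 45.5 ± 39.4 and 102 ± 68.4, against 8.69 and 5.44. That of Gm10228, 1110025L11Rik and Krtap6-1 had a mean of 88.9 ± 86.2 in knockout DNFB ears, against 7.72 in control ears. The first read 111, 17.99 and 12.98 in wild-type DNFB ears 1, 2 and 3, and 92.9, 169 and 8.99 in the knockout, so that DNFB ear 3 was below 16 in both. The second read 90.7, 18.01 and 27.7 in wild type and 112, 165 and 28.97 in the knockout. The third read 58.7, 186 and 21.8 in the knockout, and in wild type its treated ears overlapped the control ears. A probe set shared by Krtap3-2 and Krtap3-3 had higher DNFB means (90.6 and 148, against 25.9 and 32.5 in control ears), but its groups overlapped in both genotypes. No test was made of any of them.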

How the results depend on the processing

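Among the 24 genes called in wild type and the 25 largest calls in the knockout, no DNFB response changed direction under the alternatives run, but the counts of genes passing changed. In wild type 24 genes rose; the count was 11 with no filter, 13 with values below 16 set to 16, and 10 to 31 with 1 array left out. In the knockout 40 rose; the count was 22 with washing run as a block and 24 to 42 with 1 array left out. With no filter 31 rose in the knockout. With the replicate block (the mouse) 16 rose in wild type and 32 in the knockout, and the counts of 0 in the genotype comparisons did not change. In control ears the knockout minus wild-type difference turned sign with washing run as a block for Krtap3-1 (0.58), Krtap4-7 (0.84), Krtap13-1 (0.45), Krt84 (-0.034) and Krtap26-1 (0.20); with values below 16 set to 16 it was 0.0 for Krtap4-7 and Krtap26-1. For the difference of the responses Krtap4-6 turned to -0.17 with washing run as a block. None of these had passed. Untreated ears of the 2 genotypes shared no run, so with this block they are compared only through the wild-type DNFB ears. The blocked control differences therefore include the gap between wild-type DNFB ear 1 and DNFB ears 2 and 3. The blocked difference of the responses rests on wild-type DNFB ear 1 and knockout control ear 3. No other cause was tested. Signal over background limits the control values: most lie below 16, where log2 changes depend on GCRMA's background correction.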
